A study of Mus musculus with 6 samples.

Results

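The genes described here are 46 protein-coding genes of the cell cycle and of DNA replication, chosen by symbol for their known roles as cyclins and kinases of the G1/S switch, replication factors and mitosis genes. All 46 were found among the 54532 genes of the deposited table, on 17 chromosomes, and all 46 had enough reads to be tested. They were measured by poly-A RNA-seq in mouse pancreatic buds taken at E12.5 and grown as explants for 2 days. In 3 TBZ samples the medium held 0.1 µM tetrabenazine (TBZ) for the whole culture, and 3 Control samples had none; both groups grew in phenol-red-free M199 with 10% fetal bovine serum and 0.1% DMSO. TBZ inhibits VMAT2, the transporter that loads monoamines such as dopamine and serotonin into vesicles, and the study asked how this pathway acts on the developing pancreas. Mouse strain, genotype, and whether a sample pooled several buds were not given in the sources used here, and the whole bud was used, so that epithelium, mesenchyme and other cells were measured together.

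Cells commit to division in G1, when D-type cyclins activate Cdk4 and Cdk6, which phosphorylate the retinoblastoma protein and release E2F transcription factors. E2F then drives the genes of cyclin E and of replication, while a later programme under the MuvB complex, B-Myb and Foxm1 drives the genes of mitosis. In the mouse pancreas at this stage the multipotent epithelial progenitors divide, and cells that switch on Neurog3 largely leave the cycle as they become endocrine. Ccnd2 and Cdk4 are known from mouse mutants to be needed for the growth of beta cell mass after birth.

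None of the 46 genes differed between TBZ and Control buds past the threshold, an edgeR quasi-likelihood adjusted p under 0.05 over all tested genes. Of 18226 tested genes 0.187% passed it, 0.154% with higher and 0.0329% with lower values in TBZ. Without adjustment for multiple tests 0 of the 46 had a p under 0.05, where 9.61% of all tested genes did. The share was 10.3% among the 9293 genes whose mean CPM (counts scaled to a common library size by TMM) over 6 libraries reached 17.3. This cut was the TBZ mean of Cdkn2c, the least abundant member. The log2 fold changes of the members lay between -0.17 (Cdt1) and 0.17 (Mki67), with 19 above 0, 27 below 0 and a median of -0.011, against a median of 0.00031 over all tested genes; 49.9% of all tested genes and 45.4% of those 9293 lay below 0. Counted without regard to sign, the median member differed by 0.052 on the log2 scale and the median tested gene by 0.081. The latter covers all 18226 genes, many of them less abundant than any member, and was not taken over the 9293 alone. DESeq2 on the same counts called 0 of the 46 (1.43% of genes with an adjusted p) and put 1, Rrm2, at an unadjusted p under 0.05 (4.72% of genes with a p). The authors' deposited table lists 0 of the 46 as changed at an adjusted p under 0.05 (0.767% of its genes with one), and 1 at an unadjusted p under 0.05 (5.1%). Its values are nearly those of the DESeq2 fit, with a log2 fold change of -0.133 for Rrm2 and 222 genes called in both. The deposited result is therefore not a separate test.

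The absence of a call came with narrow intervals. For 43 of the 46 genes the 95% interval of the fold change lay inside 0.32 on the log2 scale either way. It did so for 52.6% of all tested genes and 89.2% of the 9293 with a mean CPM of at least 17.3. The other 3 members were Cdt1 (log2 -0.38 to 0.031), Mki67 (-0.10 to 0.44) and Cenpf (-0.055 to 0.39). The groups of 3 values did not overlap for 1 member, Ccne1, with TBZ below Control, against 15.5% of all tested genes (7.03% with TBZ below, 8.47% with TBZ above) and 16.5% of the 9293.

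**Figure D1:**
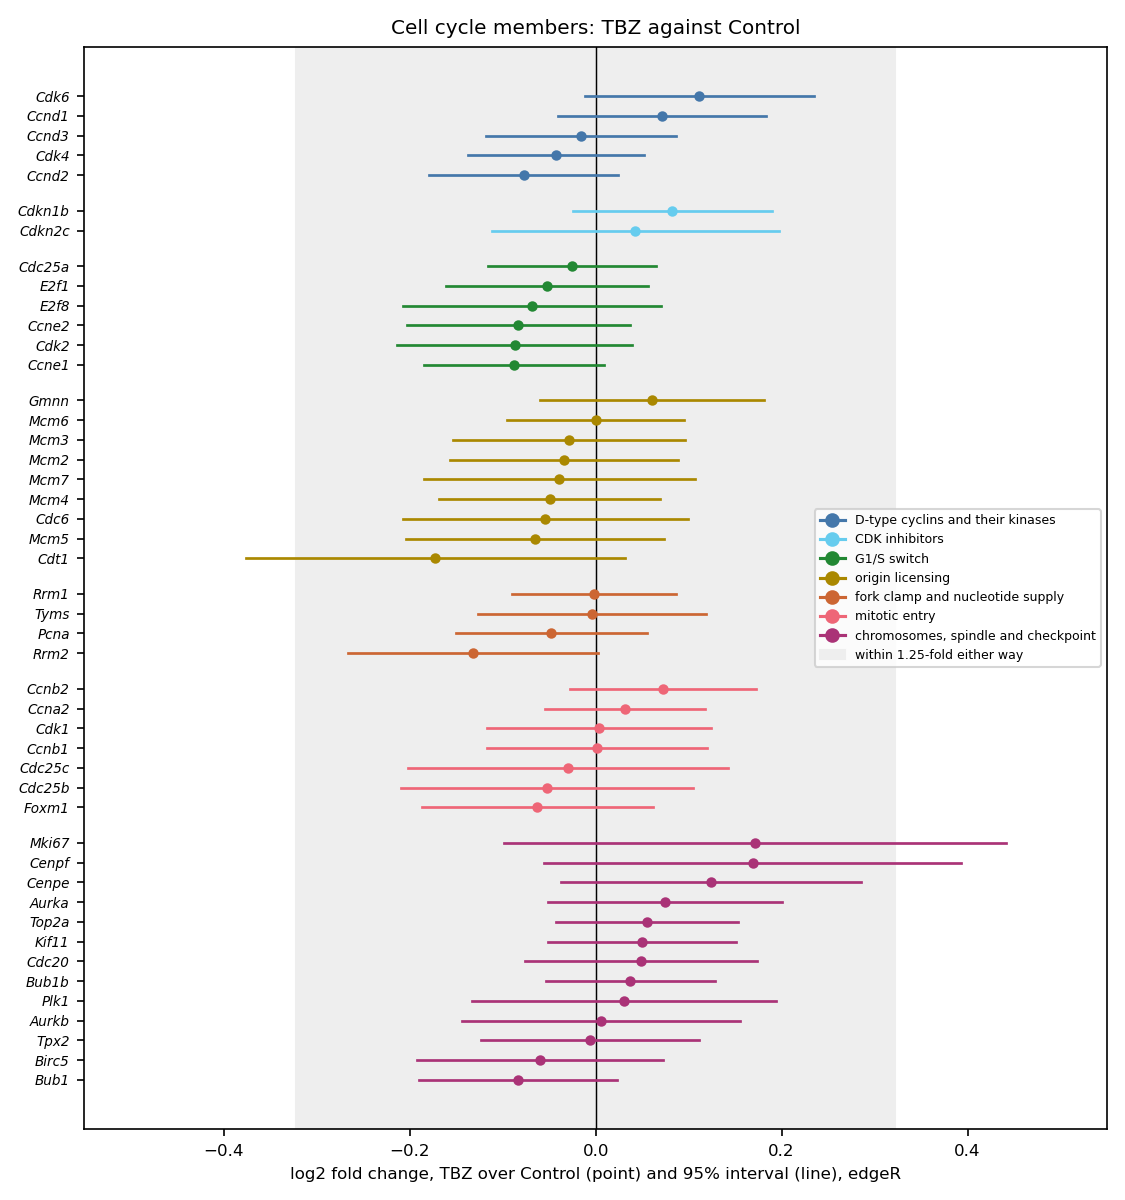
Log2 fold change of TBZ over Control for the 46 genes (points) with 95% intervals (lines) from edgeR, ordered by role from the top; the grey band marks 0.32 either way on the log2 scale. All points lie between -0.17 and 0.17, and the intervals of Cdt1, Mki67 and Cenpf reach outside the band.

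The libraries held 40840929, 40973254 and 35825033 counted reads in TBZ replicates 1 to 3 and 46976677, 50620936 and 41005819 in Control replicates 1 to 3, so that even Cdkn2c, the least abundant member by CPM, had a CPM of 16.0 or more in every library. Pearson correlations of log2 CPM between libraries ran from 0.9875 to 0.994. Control replicate 3 stood apart on the first principal component (-34.5, against 22.3, -2.20 and 23.3 in TBZ replicates 1 to 3 and -4.05 and -4.93 in the other Control replicates). All 6 markers of pancreatic epithelium were detected in all libraries, among them Pdx1 at 29.1 ± 0.708 FPKM in TBZ and 22.1 ± 3.97 FPKM in Control (FPKM, fragments scaled by gene length and by library size; SD, n = 3 each). Mesenchyme markers were abundant too, with 8 genes taking 0.781 ± 0.0543% of the counts in TBZ and 0.780 ± 0.0586% in Control (SD, n = 3 each). Nothing in the labels states that the replicates come from different cultures or litters; p-values therefore cover the variation among these 6 samples alone, and it may be technical.

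Promoter sequences of 4 members are shown because replication genes and mitosis genes are known for distinct promoter elements. E2F factors bind the letters TTTCCCGC, TTTCGCGC, TTTGCCGC or TTTGGCGC, while promoters of mitosis genes often hold the cell cycle homology region, TTTGAA, near boxes with CCAAT, which NF-Y binds. Each sequence is the RefSeq window (build GRCm38.p6) from 250 bases before to 50 bases after the gene's start, written 5′ to 3′ on the gene's strand. Mcm5 (chr8:75109259-75109558, plus strand) and Mcm6 (chr1:128359656-128359955, minus strand) encode subunits of the replicative helicase, and capitals mark E2F letters on either strand.
Mcm5 promoter: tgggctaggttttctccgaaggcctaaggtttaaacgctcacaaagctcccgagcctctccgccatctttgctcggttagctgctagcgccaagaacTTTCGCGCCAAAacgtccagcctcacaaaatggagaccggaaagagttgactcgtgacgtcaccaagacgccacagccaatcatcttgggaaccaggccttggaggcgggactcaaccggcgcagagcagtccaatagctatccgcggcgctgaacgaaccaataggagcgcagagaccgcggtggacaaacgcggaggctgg
Mcm6 promoter: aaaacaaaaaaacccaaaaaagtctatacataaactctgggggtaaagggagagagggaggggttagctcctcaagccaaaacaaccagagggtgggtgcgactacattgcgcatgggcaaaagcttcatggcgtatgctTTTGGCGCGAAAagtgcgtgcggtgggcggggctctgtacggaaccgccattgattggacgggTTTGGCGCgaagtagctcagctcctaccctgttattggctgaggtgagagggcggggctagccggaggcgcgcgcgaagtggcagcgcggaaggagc
Cdc20 (chr4:118437294-118437593, minus strand), which activates the anaphase-promoting complex, and Ccnb2 (chr9:70421505-70421804, minus strand), a B-type cyclin, stand for the mitosis genes, and capitals mark TTTGAA and CCAAT letters on either strand.
Cdc20 promoter: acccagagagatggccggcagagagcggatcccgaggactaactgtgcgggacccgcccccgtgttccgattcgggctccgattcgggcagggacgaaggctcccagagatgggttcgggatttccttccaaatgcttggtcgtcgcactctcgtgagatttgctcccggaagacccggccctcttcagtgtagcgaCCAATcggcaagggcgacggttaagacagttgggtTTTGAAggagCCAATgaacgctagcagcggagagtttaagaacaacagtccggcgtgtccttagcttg
Ccnb2 promoter: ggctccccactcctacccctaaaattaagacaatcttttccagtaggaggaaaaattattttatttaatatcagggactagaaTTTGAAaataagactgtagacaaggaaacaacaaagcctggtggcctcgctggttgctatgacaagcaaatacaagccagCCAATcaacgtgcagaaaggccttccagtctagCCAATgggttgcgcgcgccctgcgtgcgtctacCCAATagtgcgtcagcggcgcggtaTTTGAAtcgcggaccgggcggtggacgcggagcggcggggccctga
In Mcm5 and Mcm6 a pair of E2F matches on opposite strands share letters and form a single capital run.

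Of the 46 members 36 matched the promoter table, with 39 windows. E2F letters stood in 23.1% of these windows and in 2.26% of all 32851 windows in the table, TTTGAA in 30.8% and 17.9%, and CCAAT in 74.4% and 37.4%, both strands being searched. Among the members of the G1/S, licensing and nucleotide groups 8 of 17 windows held E2F letters and 2 held TTTGAA. In the 2 mitotic groups 1 of 15 windows held E2F letters and 10 held TTTGAA, each of these together with CCAAT. Of the 9 genes with E2F letters 8 lay below 0 (median log2 fold change -0.039), against 13 of the 27 genes without them and 49.9% of all tested genes. When Control replicate 3 was left out, 4 of the 9 lay below 0 with a median of 0.013, against 8 of the 27. In at least 1 fit that left out a library, 5 of the 9 and 8 of the 27 changed sign. Of the 12 genes with TTTGAA 2 lay below 0 (median 0.049), against 19 of the 24 genes without it, and with Control replicate 3 left out these counts were 2 of 12 and 10 of 24. Sign changes in at least 1 fit that left out a library were seen for 3 of the 12 and 10 of the 24. Cdk1 is in both sets, and no gene of either set passed the edgeR test. A match of letters is a description of the window and not a site shown to be used.

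Levels of the members can be compared with each other per gene length. The highest was Cdk4, a kinase partner of D-type cyclins, at 174 ± 3.91 FPKM in TBZ and 179.8 ± 6.77 FPKM in Control (SD, n = 3 each). It was followed by Pcna, the sliding clamp of DNA polymerases (116 ± 3.51 FPKM in TBZ and 120.2 ± 5.14 FPKM in Control), and by Mcm6 (66.1 ± 1.46 FPKM in TBZ and 66.1 ± 2.35 FPKM in Control), and the spreads of these 3 did not overlap. Cdc20 and Ccnb2, next in the order, overlapped in their spread (61.4 ± 3.11 FPKM in TBZ and 59.4 ± 3.25 FPKM in Control for Cdc20, 60.0 ± 2.41 FPKM in TBZ and 57.1 ± 0.937 FPKM in Control for Ccnb2). At the low end stood Cdkn2c (6.42 ± 0.162 FPKM in TBZ and 6.24 ± 0.266 FPKM in Control) and Cdk6, the other kinase partner of D-type cyclins (3.97 ± 0.215 FPKM in TBZ and 3.68 ± 0.163 FPKM in Control). The median member lay at 29.4 FPKM over the 6 libraries. As a share of all counts the 46 genes took 0.670, 0.716 and 0.693% in TBZ replicates 1 to 3 and 0.702, 0.678 and 0.733% in Control replicates 1 to 3, ranges that overlap.

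**Figure D2:**
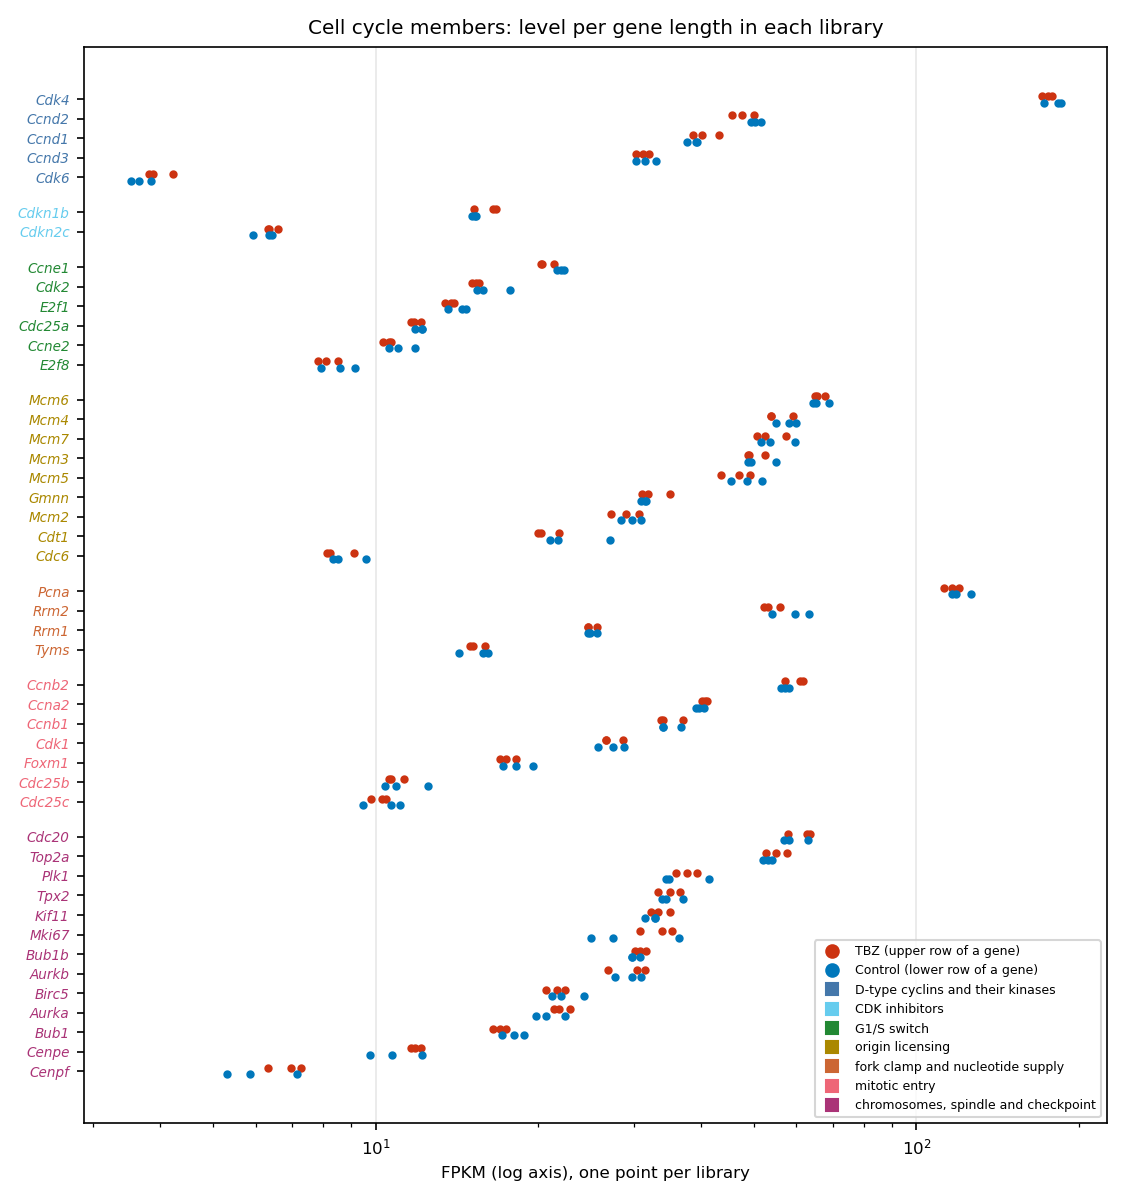
FPKM (log axis) of each of the 46 genes, grouped by role, with 1 point per library; TBZ is the upper row of each gene and Control the lower. Cdk4 and Pcna are above 100 FPKM in both groups, Cdk6 is lowest, and TBZ and Control points of a gene lie close together compared with the distances between genes.

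D-type cyclins and their kinases, which answer growth signals, had 2 of 5 genes above 0, and their median log2 fold change was -0.015. Ccnd2 had 449, 473 and 431 CPM in TBZ replicates 1 to 3, against 466, 475 and 487 CPM in Control replicates 1 to 3 (log2 fold change -0.077 ± 0.045 SE, edgeR adjusted p = 0.631). Ccnd1 had 182, 189.6 and 204 CPM in TBZ replicates 1 to 3, against 185, 178 and 184 CPM in Control replicates 1 to 3 (log2 fold change 0.071 ± 0.050 SE, edgeR adjusted p = 0.692). Cdk6 had 53.4, 59.1 and 54.6 CPM in TBZ replicates 1 to 3, against 54.0, 51.2 and 49.5 CPM in Control replicates 1 to 3 (log2 fold change 0.11 ± 0.055 SE, edgeR adjusted p = 0.558). For each of these genes at least 1 TBZ library lay inside the Control range, or the reverse, so that the groups overlapped. Cdk4 had 555, 580.2 and 571 CPM in TBZ replicates 1 to 3, against 595, 561 and 602 CPM in Control replicates 1 to 3, with a 95% interval of -0.14 to 0.052 on the log2 scale. Ccnd3, the other D-type cyclin, had a log2 fold change of -0.015.

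Both CDK inhibitors among the members, which hold G1 kinases in check, overlapped between groups. Cdkn1b, encoding p27, had 75.3, 69.3 and 76.2 CPM in TBZ replicates 1 to 3, against 69.6, 70.1 and 68.8 CPM in Control replicates 1 to 3 (log2 fold change 0.082 ± 0.048 SE, edgeR adjusted p = 0.626). TBZ replicate 2 was within the Control range, and TBZ replicates 1 and 3 lay above it. Cdkn2c, encoding the INK4 protein p18, had 17.1, 17.8 and 17.0 CPM in TBZ replicates 1 to 3, against 16.0, 17.3 and 17.1 CPM in Control replicates 1 to 3 (log2 fold change 0.043 ± 0.068 SE, edgeR adjusted p = 0.880). The inhibitors and brakes outside the member list are given further on.

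The G1/S switch had 6 of 6 genes below 0, with values from -0.087 to -0.026 and a median of -0.076. Ccne1, which encodes cyclin E1, the activator of Cdk2, had 54.3, 57.1 and 54.2 CPM in TBZ replicates 1 to 3, against 59.4, 58.7 and 57.9 CPM in Control replicates 1 to 3 (log2 fold change -0.087 ± 0.043 SE, edgeR adjusted p = 0.558). All 3 TBZ values lay below all 3 Control values, and Ccne1 was the member with this pattern. Its 95% interval was -0.18 to 0.0093. Ccne2 had 37.3, 37.0 and 36.2 CPM in TBZ replicates 1 to 3, against 41.5, 38.5 and 37.2 CPM in Control replicates 1 to 3 (log2 fold change -0.083 ± 0.053 SE, edgeR adjusted p = 0.659), and TBZ replicate 1 lay just above Control replicate 3. Cdk2 had 96.9, 95.6 and 94.4 CPM in TBZ replicates 1 to 3, against 95.9, 98.4 and 110.5 CPM in Control replicates 1 to 3 (log2 fold change -0.087 ± 0.056 SE, edgeR adjusted p = 0.662), and Control replicate 3 was the highest library. E2f1, an activator of this programme, had a log2 fold change of -0.052, E2f8, a repressor within it, -0.069, and Cdc25a, a phosphatase that activates Cdk2, -0.026. The 6 genes were also below 0 when Control replicate 3 was left out, with a median of -0.024.

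Origin licensing loads the Mcm2 to Mcm7 helicase at origins through Cdc6 and Cdt1, with geminin (Gmnn) as the inhibitor of Cdt1. In this group 8 of 9 genes lay below 0, with a median of -0.039. Cdt1 had 63.6, 68.6 and 62.9 CPM in TBZ replicates 1 to 3, against 68.5, 66.1 and 85.5 CPM in Control replicates 1 to 3 (log2 fold change -0.17 ± 0.090 SE, edgeR adjusted p = 0.591), the lowest log2 fold change of the 46. Control replicate 3 was the highest library by a wide margin, and without it the log2 fold change was -0.047 (edgeR adjusted p = 0.826). Gmnn, the 1 gene of the group above 0, had 45.7, 51.5 and 46.9 CPM in TBZ replicates 1 to 3, against 46.5, 46.2 and 45.6 CPM in Control replicates 1 to 3 (log2 fold change 0.060 ± 0.053 SE, edgeR adjusted p = 0.761), and TBZ replicate 2 was its highest library.

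All 6 helicase subunits had 95% intervals inside 0.32 on the log2 scale either way. Mcm5 had 174, 197 and 188 CPM in TBZ replicates 1 to 3, against 195, 182 and 208 CPM in Control replicates 1 to 3 (log2 fold change -0.065 ± 0.062 SE, edgeR adjusted p = 0.776), with overlapping groups. Mcm6, the most abundant of the 6 per length, had 306, 317 and 305 CPM in TBZ replicates 1 to 3, against 304, 302 and 322 CPM in Control replicates 1 to 3, and its 95% interval ran from -0.10 to 0.10. The log2 fold changes of the others were -0.050 for Mcm4, -0.039 for Mcm7, -0.034 for Mcm2 and -0.029 for Mcm3, and that of the loader gene Cdc6 was -0.054. With Control replicate 3 left out, 4 of the 9 licensing genes lay below 0 and the median was 0.013, so the direction of this group rests on that library.

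Pcna and the enzymes of nucleotide supply had 4 of 4 genes below 0, with a median of -0.026. Rrm2, the regulated subunit of ribonucleotide reductase, had 147, 156 and 146 CPM in TBZ replicates 1 to 3, against 166, 151 and 176 CPM in Control replicates 1 to 3 (log2 fold change -0.13 ± 0.060 SE, edgeR adjusted p = 0.532), the smallest p of the 46 (unadjusted 0.0530). Control replicate 2 lay within the TBZ range. Pcna had 279.8, 288 and 272 CPM in TBZ replicates 1 to 3, against 285, 279.6 and 303 CPM in Control replicates 1 to 3 (log2 fold change -0.048 ± 0.046 SE, edgeR adjusted p = 0.780). Tyms, which makes thymidylate, had 92.2, 97.3 and 91.5 CPM in TBZ replicates 1 to 3, against 96.2, 87.2 and 98.5 CPM in Control replicates 1 to 3 (log2 fold change -0.0039 ± 0.054 SE, edgeR adjusted p = 0.992). Rrm1, the other reductase subunit, had a log2 fold change of -0.0017 and an interval of -0.090 to 0.086. In the fit that left out Control replicate 3, 2 of the 4 were below 0 and the median was 0.0033. There were also 2 below 0 without TBZ replicate 1 (median -0.022) and without TBZ replicate 3 (-0.012). Without Control replicate 1 there were 3 (-0.035), and without TBZ replicate 2 or Control replicate 2 all 4.

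**Figure D3:**
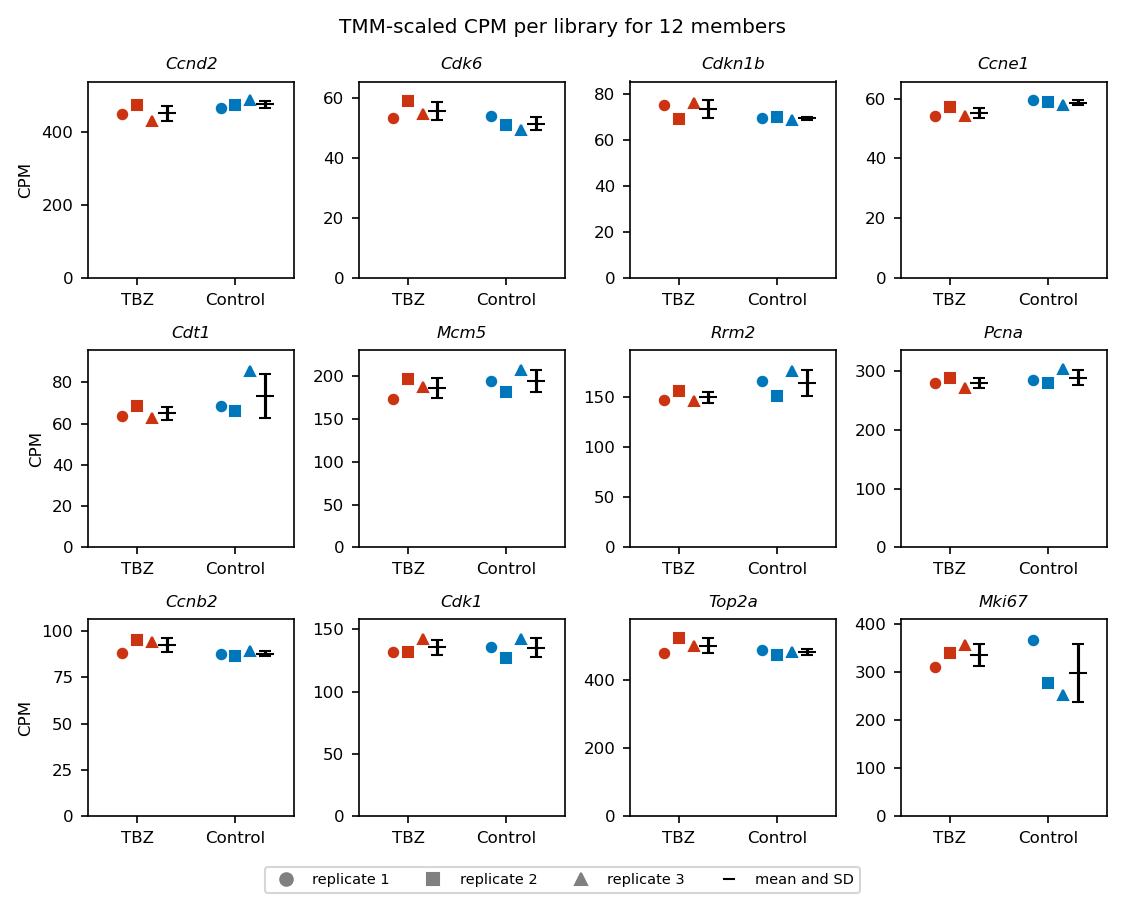
CPM in each library for 12 members from all role groups, TBZ left of Control, with the mean and SD of each group in black; every axis starts at 0. The groups overlap in each panel apart from that of Ccne1, and the Control spread of Mki67 and Cdt1 is wide beside that of TBZ.

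Genes of mitotic entry had 4 of 7 above 0 and a median of 0.0013, where Cdk1 and Ccnb1 lay below 0 when scaled by library totals. Ccnb2 had 87.9, 94.8 and 93.9 CPM in TBZ replicates 1 to 3, against 87.6, 86.3 and 89.2 CPM in Control replicates 1 to 3 (log2 fold change 0.072 ± 0.044 SE, edgeR adjusted p = 0.647), and TBZ replicate 1 was within the Control range. Ccna2, encoding the cyclin A of S and G2 phase, had 164, 168 and 167 CPM in TBZ replicates 1 to 3, against 162, 160.0 and 166 CPM in Control replicates 1 to 3 (log2 fold change 0.032 ± 0.038 SE, edgeR adjusted p = 0.834). Foxm1, a transcription factor of G2 and mitosis genes, had 100.3, 105 and 98.1 CPM in TBZ replicates 1 to 3, against 105, 99.2 and 113 CPM in Control replicates 1 to 3 (log2 fold change -0.063 ± 0.055 SE, edgeR adjusted p = 0.758). For Cdk1, the kinase of mitosis, and Ccnb1, its main cyclin, the log2 fold changes were 0.0037 and 0.0013, with 95% intervals of -0.12 to 0.12 and -0.12 to 0.12. The phosphatases that activate Cdk1 had values of -0.052 for Cdc25b and -0.030 for Cdc25c.

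Genes of chromosomes, the spindle and its checkpoint had 10 of 13 above 0 and a median of 0.049. Top2a, the topoisomerase of dividing cells, had 477, 521 and 498 CPM in TBZ replicates 1 to 3, against 487, 470.4 and 481 CPM in Control replicates 1 to 3 (log2 fold change 0.055, 95% interval -0.042 to 0.15). Cdc20, per length the highest of this group, had 108, 119 and 118 CPM in TBZ replicates 1 to 3, against 109, 107 and 118 CPM in Control replicates 1 to 3 (log2 fold change 0.049 ± 0.055 SE, edgeR adjusted p = 0.821). Bub1, a checkpoint kinase with the lowest log2 fold change of the group, had 74.2, 75.9 and 72.2 CPM in TBZ replicates 1 to 3, against 78.7, 74.9 and 82.0 CPM in Control replicates 1 to 3 (log2 fold change -0.083 ± 0.047 SE, edgeR adjusted p = 0.621). The values were 0.075 for Aurka, 0.050 for the spindle motor gene Kif11, 0.037 for Bub1b and 0.030 for Plk1. They were 0.0058 for Aurkb (-0.013 when scaled by library totals), -0.0058 for the Aurora A activator gene Tpx2 and -0.060 for Birc5, which encodes survivin. Leaving out Control replicate 3, 12 of the 13 were above 0 with a median of 0.060, and Aurka and Plk1 had an unadjusted p under 0.05 (edgeR adjusted p = 0.443 and 0.444, log2 0.13 and 0.12). They were the 2 such members of 46 in that fit, where 9.51% of all tested genes were under 0.05.

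Mki67, Cenpf and Cenpe shared the lower part of their order of libraries. Control replicate 3 was lowest, Control replicate 2 next and TBZ replicate 1 above them, while the order of the higher libraries differed. Mki67, the gene of the proliferation marker Ki-67, had 311, 341 and 357 CPM in TBZ replicates 1 to 3, against 366, 277 and 252 CPM in Control replicates 1 to 3 (log2 fold change 0.17 ± 0.12 SE, edgeR adjusted p = 0.695). Cenpf, which encodes a large kinetochore protein, had 97.9, 108 and 113 CPM in TBZ replicates 1 to 3, against 111, 90.7 and 82.2 CPM in Control replicates 1 to 3 (log2 fold change 0.17 ± 0.10 SE, edgeR adjusted p = 0.633), and Cenpe, which encodes a kinetochore motor, had 101, 105 and 103 CPM in TBZ replicates 1 to 3, against 105, 92.7 and 84.6 CPM in Control replicates 1 to 3 (log2 fold change 0.12 ± 0.072 SE, edgeR adjusted p = 0.626). Control replicate 1 was the highest library for Mki67 and Cenpe and the second highest for Cenpf, and Control replicate 3 was the lowest for all 3, so that the Control libraries alone nearly spanned the range of all 6. Without Control replicate 1 the log2 fold changes were 0.34, 0.29 and 0.21, with unadjusted p of 0.000652, 0.00253 and 0.00457 and edgeR adjusted p of 0.109, 0.162 and 0.194. In the fit without Control replicate 3 they were 0.066, 0.081 and 0.055. The falling order from Control replicate 1 to 3 was also seen in some mitosis genes outside the member list. Control replicates 1 to 3 had 56.6, 50.9 and 45.7 CPM for Knl1 and 81.5, 72.8 and 62.7 CPM for Aspm. For Ckap5 they had 187, 179.8 and 161 CPM, and Control replicate 3 was the lowest library for each of these genes. Knl1, Aspm and Ckap5 were picked because they had this order. Over all 59 other mitosis genes Control replicate 3 was not low. The median of log2 CPM relative to the gene's mean was -0.0067, -0.057 and 0.063 in Control replicates 1 to 3. The group of Mki67, Cenpf and Cenpe was also chosen after its values were seen.

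**Figure D4:**
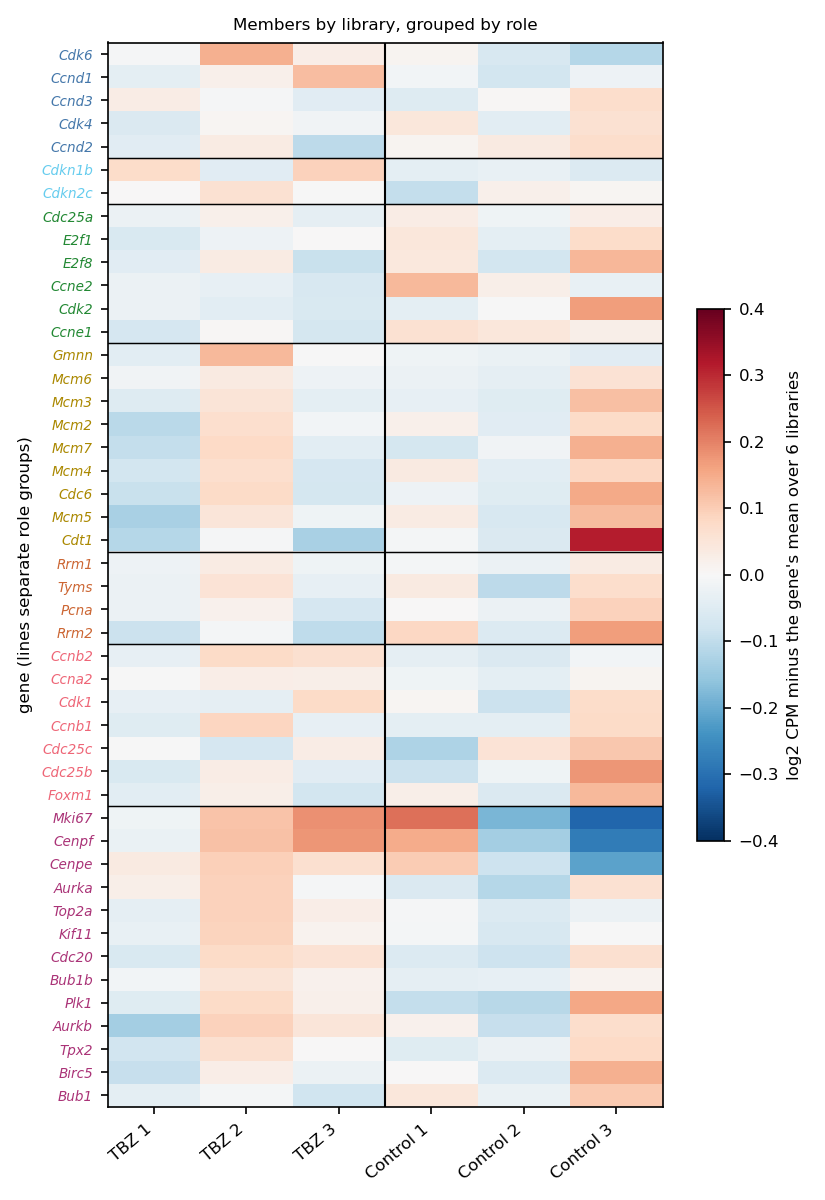
Log2 CPM of the 46 genes in each library relative to the gene's mean over 6 libraries (colour), with TBZ left of Control and lines between role groups. Control replicate 3 is above the mean for most genes and below it for Mki67, Cenpf and Cenpe, which are high in Control replicate 1, while TBZ replicate 1 is mostly below and TBZ replicate 2 mostly above the mean.

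Control replicate 3 was the highest library for 24 of the other 43 members and the lowest for 3 of them. Over all 46 it was highest for 24 and lowest for 6, while the highest library was TBZ replicate 2 for 13, TBZ replicate 3 for 4 and Control replicate 1 for 5. TBZ replicate 1 and Control replicate 2 were each lowest for 12. The median over the 46 genes of log2 CPM relative to the gene's mean was -0.039, 0.042 and -0.016 in TBZ replicates 1 to 3 and -0.0054, -0.043 and 0.071 in Control replicates 1 to 3, so both groups span 0. Without Control replicate 3, 16 of the 46 log2 fold changes lay below 0 and the median was 0.029, against 27 and -0.011 with all libraries. Without TBZ replicate 2, 29 lay below 0 and the median was -0.039. No member passed the edgeR threshold in any of these fits.

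Among all tested protein-coding genes, the place of Control replicate 3 in the order of libraries varied with gene length. Tested protein-coding genes were put in 10 bins by deposited gene length, with 1519 or 1520 genes each. In the longest bin, of 9.756 kb or more, the median of log2 CPM relative to the gene's mean was 0.014, 0.023 and 0.018 in TBZ replicates 1 to 3 and 0.045, 0.011 and -0.10 in Control replicates 1 to 3. Control replicate 3 was the lowest library for 57.1% of the genes in that bin and for 15.9% of those in bin 2, of 1.702 to 2.406 kb. Mki67 (10.061 kb) and Cenpf (15.433 kb) are in the longest bin and Cenpe (8.62 kb) in the next. Of the other members in the longest bin, Cdk6 (13.989 kb) was lowest in Control replicate 3, while Rrm1 (11.012 kb) was not. Of the other members in the bin of Cenpe, Ccnd2 and Ccnd3 were highest in Control replicate 3, and Cdc25a and Top2a were not lowest there. In the other cell cycle lists Control replicate 3 stood above the mean in both length classes. Of the 41 genes of 6 kb or more, Control replicate 3 was lowest for 5, Knl1, Aspm and Ckap5 among them, and highest for 12 (median deviation 0.030). Of the 97 shorter ones it was lowest for 8 and highest for 50 (0.076). The part of gene length in the values of these genes was not tested.

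**Figure D5:**
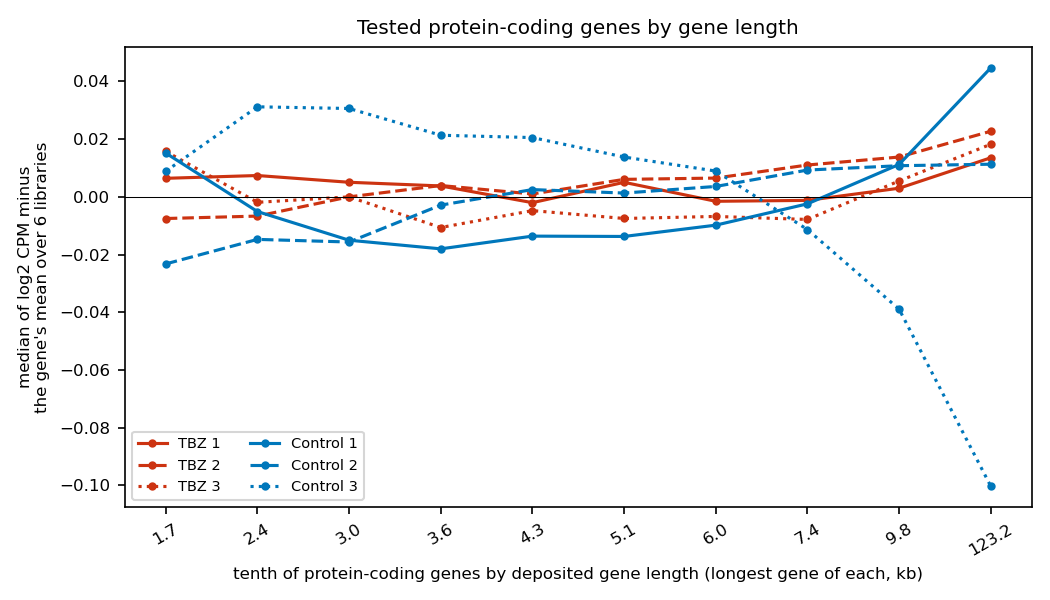
Median of log2 CPM relative to the gene's mean over 6 libraries (y axis), for tested protein-coding genes in 10 bins of deposited gene length (x axis, kb), with 1 line per library. Control replicate 3 drops to -0.10 in the longest bin and the 3 TBZ libraries stay between 0.014 and 0.023 there.

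Genes of replication outside the member list were set beside the members. Of 46 such genes (origin recognition, helicase activation, polymerases, clamp loaders and chromatin assembly) 39 lay below 0, with a median of -0.046, where 49.9% of all tested genes lay below 0; none passed the edgeR threshold. The 3 with the smallest p were Gins1, a subunit of the helicase activator GINS, Wdhd1, a replisome scaffold, and Clspn, which encodes the replication checkpoint mediator claspin. Gins1 had 21.8, 23.3 and 21.1 CPM in TBZ replicates 1 to 3, against 24.8, 23.2 and 26.4 CPM in Control replicates 1 to 3 (log2 fold change -0.17 ± 0.070 SE, edgeR adjusted p = 0.495). Wdhd1 had 55.7, 62.0 and 56.7 CPM in TBZ replicates 1 to 3, against 62.3, 62.3 and 65.1 CPM in Control replicates 1 to 3 (log2 fold change -0.12 ± 0.052 SE, edgeR adjusted p = 0.496), and Clspn had 56.9, 62.0 and 58.6 CPM in TBZ replicates 1 to 3, against 65.8, 62.5 and 63.2 CPM in Control replicates 1 to 3 (log2 fold change -0.11 ± 0.048 SE, edgeR adjusted p = 0.506). In Wdhd1 and Clspn all TBZ values were below all Control values. When that comparison left out Control replicate 3, 28 of the 46 lay below 0 and the median was -0.019.

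Of 59 other mitosis genes 28 lay above 0 and 31 below, with a median of -0.0044, and none passed. The smallest p-values were those of the kinetochore gene Cenpk (log2 -0.17, edgeR adjusted p = 0.508), the cyclin F gene Ccnf (-0.090, 0.596) and the midzone gene Prc1 (0.076, 0.605). Prc1 had 95.9, 96.9 and 97.0 CPM in TBZ replicates 1 to 3, against 89.2, 90.7 and 95.2 CPM in Control replicates 1 to 3, so that all TBZ values lay above all Control values. Cenpk had 16.4, 18.9 and 17.4 CPM in TBZ replicates 1 to 3, against 19.3, 19.8 and 20.2 CPM in Control replicates 1 to 3, and Ccnf had 68.5, 73.0 and 72.3 CPM in TBZ replicates 1 to 3, against 74.6, 73.5 and 79.5 CPM in Control replicates 1 to 3, and in both all TBZ values lay below all Control values. With Control replicate 3 left out, 42 of the 59 lay above 0.

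Among 22 genes of the RB and E2F families and other regulators of cyclins and kinases, 16 lay below 0 and none passed. Fbxw7, the ubiquitin ligase subunit that marks cyclin E for breakdown, had 34.3, 35.7 and 34.2 CPM in TBZ replicates 1 to 3, against 39.3, 37.5 and 39.2 CPM in Control replicates 1 to 3 (log2 fold change -0.15 ± 0.047 SE, edgeR adjusted p = 0.320). Ccng2, an atypical cyclin linked to cell cycle arrest, had 60.4, 57.5 and 57.1 CPM in TBZ replicates 1 to 3, against 63.4, 65.5 and 63.4 CPM in Control replicates 1 to 3 (log2 fold change -0.14 ± 0.043 SE, edgeR adjusted p = 0.339), and Ccng1, a p53 target, 283, 263 and 240.0 CPM in TBZ replicates 1 to 3, against 289, 289 and 285 CPM in Control replicates 1 to 3 (log2 fold change -0.13 ± 0.058 SE, edgeR adjusted p = 0.509). These 3 had lower values in every TBZ library than in any Control library. The unadjusted p was 0.00970 for Fbxw7, 0.0112 for Ccng2 and 0.0476 for Ccng1.

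Of 11 other CDK inhibitors and brakes, 5 lay above 0 and 6 below, and none passed. Cdkn2d, encoding the INK4 protein p19, had 18.3, 16.8 and 17.2 CPM in TBZ replicates 1 to 3, against 21.0, 18.8 and 21.7 CPM in Control replicates 1 to 3 (log2 fold change -0.23 ± 0.076 SE, edgeR adjusted p = 0.364), and all TBZ values lay below all Control values. Gadd45g, a growth arrest and stress gene, had 43.9, 33.9 and 42.2 CPM in TBZ replicates 1 to 3, against 36.8, 36.3 and 30.6 CPM in Control replicates 1 to 3 (log2 fold change 0.21 ± 0.10 SE, edgeR adjusted p = 0.558), with TBZ replicate 2 inside the Control range. Cdkn2b, encoding p15, was low, with 3.07, 2.48 and 3.20 CPM in TBZ replicates 1 to 3, against 3.24, 3.89 and 3.59 CPM in Control replicates 1 to 3 (log2 fold change -0.30 ± 0.15 SE, edgeR adjusted p = 0.590). Its TBZ values also lay below all Control values, by a small margin. This was so for 3 of the 11 genes, against 7.03% of all tested genes. In all, the 4 lists hold 138 genes, of which 8 had an unadjusted p under 0.05, against 9.61% of all tested genes. Groups did not overlap for 12 of the 138, against 15.5% of all tested genes. TBZ was below Control in 11 of the 138 and above it in 1, against 7.03% and 8.47% of all tested genes.

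Some markers of cell types passed the edgeR test, and their values stand here beside those of the cell cycle genes. Passing refers to edgeR here, and for some markers the outcome depended on the tool. DESeq2 put further markers under an adjusted p of 0.05. Its adjusted p was 2.49e-05 for Nkx6-1, 0.0157 for Pdx1 and 1.68e-06 for Ctrb1. It was 0.000334 for Neurog3, 0.000220 for Cdh1 and 0.0317 for Tff2. In these bulk samples fewer cells of a type and less RNA per cell cannot be told apart. The 6 markers of pancreatic epithelium were all above 0, with a median log2 fold change of 0.32, and took 0.169 to 0.188% of counts in TBZ and 0.129 to 0.141% in Control; of these Cpa1 passed the edgeR test. The 6 acinar markers took 0.635 to 0.771% in TBZ and 0.428 to 0.510% in Control, and 4 of them passed. Cpa1 is in both lists, so the call among the epithelium markers is also 1 of these 4, and with 1521, 1332 and 1482 CPM in TBZ replicates 1 to 3, against 1083, 1116 and 984 CPM in Control replicates 1 to 3, it made up most of the epithelium share. The 7 endocrine markers had 6 above 0 (median 0.24) and none passed; Neurog3 had 118, 101 and 124 CPM in TBZ replicates 1 to 3, against 94.7, 81.9 and 77.7 CPM in Control replicates 1 to 3 (log2 fold change 0.43 ± 0.089 SE, edgeR adjusted p = 0.124), with all TBZ values above all Control values. Of 7 general epithelium markers 5 lay above 0 (median 0.072) and none passed, and Cdh1, encoding E-cadherin, was the 1 whose groups did not overlap (log2 0.27, edgeR adjusted p = 0.0759). The 3 mesothelium markers lay below 0 (median -0.19), as did 3 of 4 blood markers (median -0.16) and 3 of 4 macrophage markers (median -0.027), and none of these passed. Mesenchyme markers had 4 of 8 above 0 (median 0.0019) and took 0.745 to 0.844% in TBZ and 0.734 to 0.846% in Control, and endothelial markers had 4 of 5 above 0 (median 0.063). The 5 tested markers of stomach and oesophagus, of 7 listed, took 0.000444 to 0.00158% in TBZ and 0.00115 to 0.00664% in Control, and none passed. Their order across libraries differed from gene to gene. Pitx1, a homeobox gene, had 1.51, 7.24 and 1.29 CPM in TBZ replicates 1 to 3, against 5.93, 6.72 and 47.8 CPM in Control replicates 1 to 3, and Sox2, a transcription factor of the foregut, had 0.818, 1.52 and 0.420 CPM in TBZ replicates 1 to 3, against 2.35, 2.35 and 12.7 CPM in Control replicates 1 to 3, both highest in Control replicate 3. Sox2 was lower in every TBZ library than in any Control library (log2 -2.62, edgeR adjusted p = 0.260). Tff2, a mucosal peptide gene, had 1.61, 1.37 and 1.23 CPM in TBZ replicates 1 to 3, against 0.576, 0.749 and 0.287 CPM in Control replicates 1 to 3, lowest in Control replicate 3 and higher in every TBZ library than in any Control library (log2 1.37, edgeR adjusted p = 0.185). Gkn1 had a log2 fold change of 0.25 and Cldn18 one of -0.29, and Cldn18 was highest in TBZ replicate 2 and Control replicate 1. Of the 5 markers of neural crest and neurons none lay above 0 (median -0.24) and none passed, and each was highest in Control replicate 3. The part of these cell types in the values of the cell cycle genes was not tested.

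Of the 46 members 13 share an annotated span with another gene that had a mean of 10 reads or more, 12 of them with a gene on the other strand, and for 8 that gene had at least 10% of the member's own count. The strand setting of the counting was not given in the sources used here, so counts from the shared part are uncertain, and reads there may have been lost. The 8 were Ccnd1, Cdk4, Ccnd3, Ccne2, Mcm7, Ccna2, Cdc25b and Cdc20, and their values carry this limit. For Ccne2 the other gene, Ints8, had 164% of its count, for Cdc20 Elovl1 had 52.0% and for Mcm7 Cops6 had 49.8%. The table also lists pseudogenes of Ccnb1, Ccnb2 and Pcna, with which these genes may share reads.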

How the data were processed

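Per the labels' protocols, mRNA was captured on poly-T beads and libraries were prepared with a NEBNext Ultra kit. Reads were handled with STAR and HTSeq on mm10, per the submitters' processing notes, which give no versions. The deposited table holds read counts per gene, not normalized, and FPKM made by the authors per kilobase of deposited gene length, per the file headers. Its signal columns are the authors' group means of scaled counts and were not used. Its log2 fold changes, p-values and adjusted p-values of TBZ over Control are the authors' own. The tool was not given in the sources used here, and the values are nearly those of the DESeq2 fit.

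The counts of all 6 libraries were tested with edgeR 4.0.16 in R 4.3.3 (quasi-likelihood F test, TMM, filterByExpr, Benjamini-Hochberg over 18226 genes; changed means adjusted p under 0.05). Fold changes are TBZ over Control. Each SE came from the fitted change and its F value, and 95% intervals use the t distribution of the fit. Log2 CPM relative to a gene's mean used a prior count of 2. The biological coefficient of variation was 8.30%. DESeq2 1.42.0, limma 3.58.1 on log2(FPKM + 0.1, 0.5 or 1), other scalings, no filter, a replicate block and leaving out each library were alternatives. The edgeR and DESeq2 fits were tested on simulated counts.

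The members, role groups and other lists were chosen with earlier results of these data known. The rule named all members, gave per-library values for the 3 with the smallest p and the 1 with the highest FPKM in each role group, and took the 3 with the smallest p from each other list. Library values of Mki67, Top2a, Knl1, Aspm and Ckap5 were given outside this rule, after the values were seen. Splicing and single-cell composition were not analysed here.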

Additional observations from a re-analysis of the deposited data

How the results depend on the processing

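No member and none of the 138 other cell cycle genes passed the adjusted threshold in any of the 14 alternatives, and the lowest adjusted p of a member in them was 0.109 (Mki67, without Control replicate 1). At an unadjusted p under 0.05 there were 0 to 5 members, most with no filter (Cdt1, Cenpe, Cenpf, Mki67 and Rrm2) and without Control replicate 1, where 8.38% and 11.2% of all tested genes were under 0.05. Over all genes the count of 34 calls (28 higher, 6 lower) became 222 with DESeq2 (170, 52), 445 with no filter (263, 182), 5 with the replicate block (4, 1), and 13 (9 higher), 14 (10 higher) and 4 (3, 1) with limma on log2(FPKM + 0.5, 0.1 and 1). Leaving out 1 library gave 5 to 36 calls, 3 to 29 higher and 2 to 8 lower.

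Library totals in place of TMM moved the median of all genes to -0.019 and that of the members to -0.030, with 30 below 0. The median of the G1/S group ranged from -0.089 to -0.024 when 1 library was left out, and that of the RB, E2F and cyclin regulator list from -0.065 to -0.021. Members near 0 changed sign: Ccnb1 to -0.000319 with RLE, -0.018 with library totals, -0.0013 with no filter and -0.000303, -0.000309 and -0.000296 with limma at pseudocounts of 0.5, 0.1 and 1; Cdk1 and Aurkb to -0.016 and -0.013 with library totals; Mcm6 to 0.000320 with the replicate block. With 1 library left out, 16 members took either sign, with ranges of -0.038 to 0.069 for Aurkb, -0.10 to 0.00061 for Birc5, -0.041 to 0.043 for Ccnb1, -0.048 to 0.019 for Ccnd3, -0.11 to 0.029 for Cdc25b, -0.10 to 0.019 for Cdc25c, -0.11 to 0.013 for Cdc6, -0.037 to 0.044 for Cdk1, -0.076 to 0.0081 for Mcm2, -0.060 to 0.029 for Mcm3, -0.017 to 0.032 for Mcm6, -0.089 to 0.026 for Mcm7, -0.016 to 0.12 for Plk1, -0.018 to 0.017 for Rrm1, -0.039 to 0.036 for Tpx2, -0.054 to 0.034 for Tyms. The cause of these changes was not tested.

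Deviations of same-numbered libraries correlated at 0.0017, -0.15 and -0.077, so no signal shared by replicate number was seen. This does not show whether same-numbered samples came from the same litter or culture, which the labels do not state. With the block no member or other cell cycle gene passed.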
